A study of Oryza sativa with 4 samples.

Results

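OsMADS2 binding was examined at 4 rice genes grouped here as spikelet and panicle regulators: SNB (Os07g0235800), OsSPL14 (Os08g0509600), OsG1L8 (Os05g0472000) and YAB2 (Os03g0650000). They were chosen from the authors' deposited gene table, which holds 2589 genes near 1442 regions called in all 3 deposited peak lists (called confident regions here). Each of the 4 genes has 1 confident region. The choice used these calls, so the presence of a region at each gene and its fold are descriptions and were not tested. Every peak within the genes or up to 4 kb from them was then taken from the 3 lists.

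The chromatin came from wild-type TP309 panicles of 0.3 to 2.0 cm, fixed with formaldehyde and cut with micrococcal nuclease. Such panicles hold many cell types, and the files carry no expression values against which the tissue label could be checked. The 4 libraries were 2 immunoprecipitations with an antibody against OsMADS2 (IP5 and IP6) and 2 mock immunoprecipitations with rabbit IgG (mock 5 and mock 6). The numbers mark biological replicates, per the file headers. Uniquely mapped reads ranged from 9142837 in IP5 to 16742118 in mock 6. The 3 peak lists compare IP5 with mock 5, IP5 with mock 6 and IP6 with mock 6, so that IP5 enters 2 of them and mock 6 enters 2. Each fold is the authors' enrichment of 1 IP library over 1 mock library and carries no replicate error. The files give no read counts per peak, so the depth behind each fold is unknown.

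OsMADS2 is a MADS-domain protein of the PISTILLATA class, which in grasses is known for lodicule and stamen identity. The grass spikelet is a short branch that bears the florets, and its meristem passes from branch to spikelet to floral fate under a series of transcription factors. SNB is an AP2-family protein that acts in the change from spikelet meristem to floral meristem, and its mRNA is a target of miR172. OsSPL14, also called IPA1 or WFP, is an SBP-box protein known for panicle branching and reduced tillering, and its mRNA is a target of miR156. OsG1L8 belongs to the ALOG family, whose rice members G1 and TAW1 act in sterile lemma identity and in the timing of spikelet formation. YAB2 is a YABBY protein, a family known from Arabidopsis for the lower side of leaves and floral organs. In the gene table the YAB2 entry also carries the symbol OsSh1 and the SNB entry the symbol SSH1, both names given for grain shattering.

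The regions of SNB, OsSPL14 and OsG1L8 crossed the annotated gene start, and that of YAB2 lay inside the gene, close behind the start. A start was crossed in 3 of the 4 genes, against 21.6% of the 2862 pairs of a confident region and a gene in the whole table. Those pairs include genes that the region does not touch, whereas each of the 4 genes is touched by its region. The shares are therefore not like for like, and their difference was not tested. The count of 3 holds for the merged regions. A peak of every list crossed the start base only at SNB (1 of the 4 genes), and the bases common to the 3 lists lay 11 to 177 bp after the start at OsSPL14 and 406 to 70 bp before it at OsG1L8. Midpoints of the merged regions stood 15.5 bp after the start of SNB, 114 bp after that of OsSPL14 and 49 bp before that of OsG1L8, while that of YAB2 stood 518 bp after it. These are distances along the direction of transcription. The bases called in all 3 lists at 1 gene spanned 314 bp at SNB, 337 bp at OsG1L8, 191 bp at YAB2 and 167 bp at OsSPL14. At each gene, then, the IP5 and IP6 peaks overlapped directly and were not joined only through another peak. Coordinates below are as the authors deposited them, with no build named in the labels or headers.

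**Figure D1:**
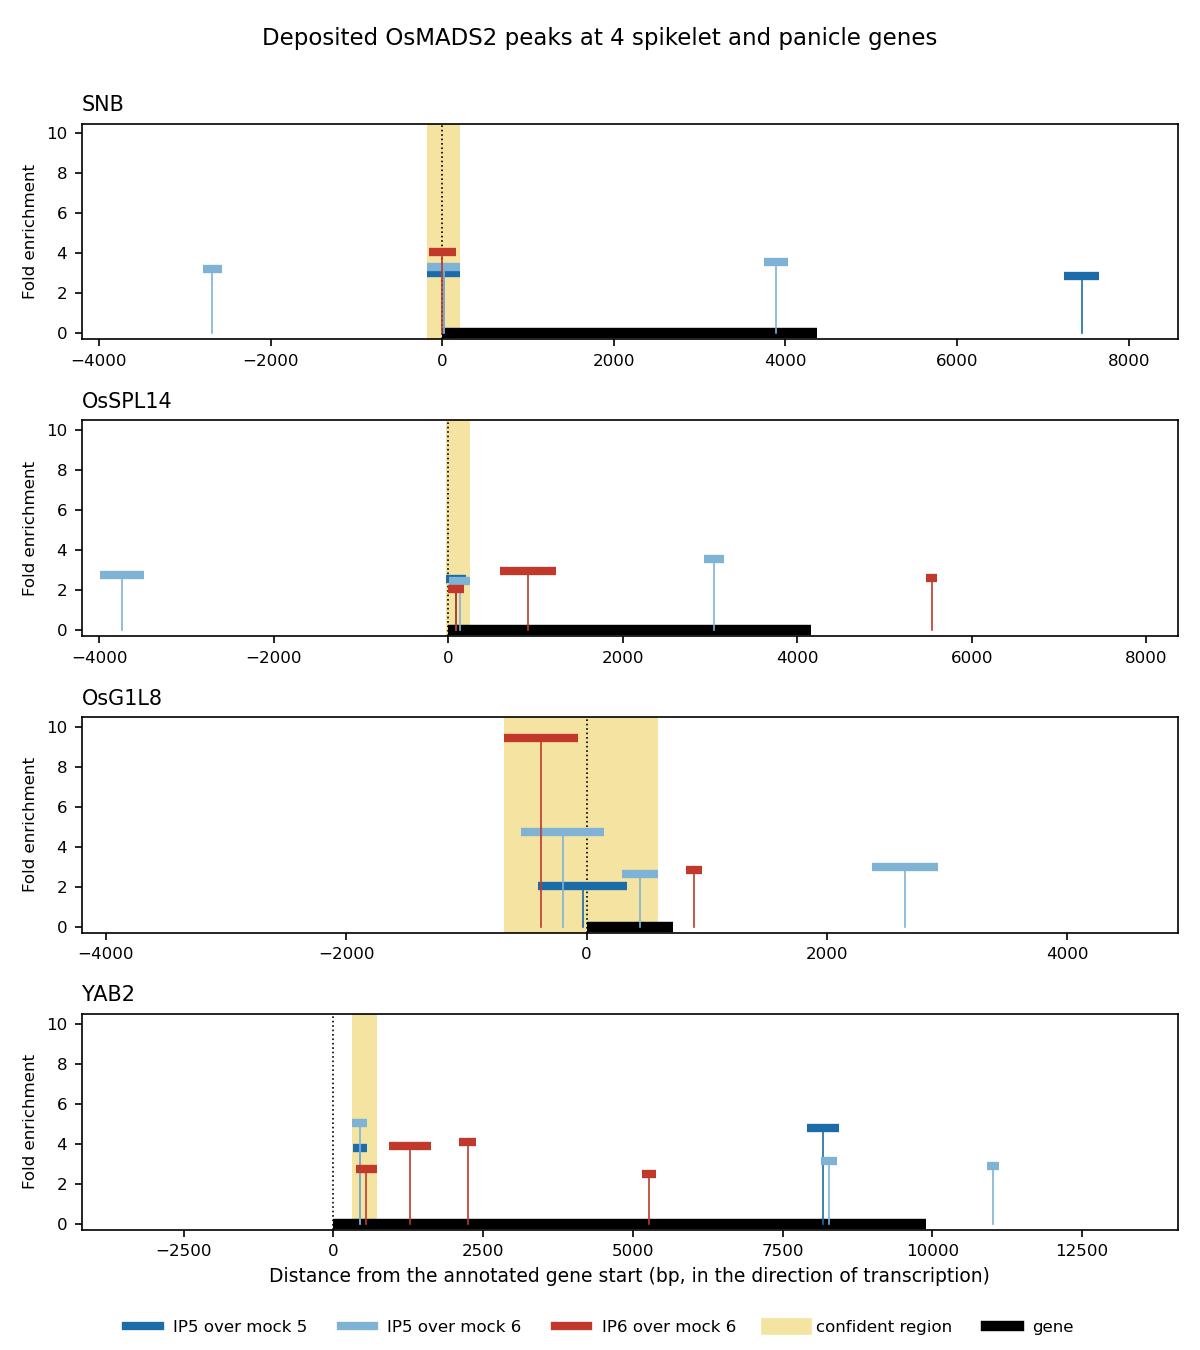
Deposited peaks at SNB, OsSPL14, OsG1L8 and YAB2, plotted by distance from the annotated gene start (bp) and by the authors' fold enrichment in each of the 3 lists. Bars span the width of each peak, shading marks the confident region and the black bar the gene. The lists meet in the shaded regions, as the choice of genes requires. Of the 15 peaks outside, 13 appear in 1 list alone, which that choice favours (over the whole lists 29%, 66.9% and 60.9% of peaks do).

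At SNB the 3 lists placed nearly the same peak across the start. The region (chromosome 7, 7545373 to 7545752, 380 bp) covers the gene start at 7545547 on the plus strand. Its fold was 3.03 for IP5 over mock 5 (q = 3.01e-07), 3.32 in IP5 over mock 6 (q = 2.2e-08) and 4.05 for IP6 over mock 6 (q = 3.6e-11). The peaks ran from 172 bp before to 205 bp after the start in IP5 over mock 5 and from 158 bp before to 155 bp after it in IP6. SNB was the gene with all 3 folds at 3 or more, a property of 31.4% of the confident regions. In IP6 its fold was above 83.6% of the regions, and in the IP5 lists above 40.1% (mock 5) and 27.8% (mock 6).

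Elsewhere at SNB the lists did not meet. IP5 over mock 6 had a peak near the far end of the gene, 3752 to 4029 bp after the start, with a fold of 3.56. Another peak of that list, with a fold of 3.20, lay 2572 to 2793 bp before the start. It crosses the start of the neighbouring gene Os07g0235700, which is transcribed away from SNB and shares the SNB region in the table at a distance of 2493 bp. IP5 over mock 5 had 1 other peak, 2881 bp beyond the gene end (2.86). None of these 3 overlapped a peak of another list. IP6 had no further peak within 4 kb, and its nearest one beyond lay 128282 bp away.

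At OsSPL14 the region was small and its folds were low in every list. The region (chromosome 8, 25278447 to 25278718, 272 bp) crosses the gene start at 25278696 on the minus strand. The fold was 2.55 in IP5 over mock 5 (q = 7.16e-05), 2.43 in IP5 over mock 6 (q = 9.74e-05) and 2.04 for IP6 over mock 6 (q = 0.0117). The IP6 value was above 0.485% of the confident regions and stood next to 2.00, the minimum that all of them meet (100% of the 1442 have a fold of at least 2 in each list). With a q of at most 0.01 asked of each list, 97.3% of the regions remain called in all 3 lists, and 83.1% at a limit of 0.001. The OsSPL14 region was lost at both limits, and those of the other 3 genes were kept. The IP6 and IP5 over mock 5 peaks reached the start base with 8 and 22 bp to spare, and the IP5 over mock 6 peak began 11 bp after it.

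Stronger peaks at OsSPL14 lay outside the region, each in 1 list. IP6 had a 649 bp peak from 590 to 1238 bp after the start with a fold of 2.95 (q = 2.29e-05). IP5 over mock 6 had a peak at 2934 to 3163 bp with a fold of 3.54 (q = 4.45e-09). The highest fold at this gene in both of these lists was thus deeper in the gene body and not at the start. The remaining peaks were 1 of IP6, 1318 bp beyond the gene end (2.63), and 1 of IP5 over mock 6, 3492 bp upstream (2.73). IP5 over mock 5 had no peak but that of the region.

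At OsG1L8 the fold differed most between lists. The region (chromosome 5, 23177514 to 23178798, 1285 bp) is wider than 91.2% of the confident regions, while the gene itself, at 717 bp, is short: 89.0% of the genes in the table are longer. It reaches from 691 bp before the start at 23178205 to 593 bp after it. The fold was 2.04 in IP5 over mock 5 (q = 8.76e-05), 4.76 in IP5 over mock 6 (q = 2.36e-17) and 9.46 for IP6 over mock 6 (q = 7.66e-50). Only 11 of the 10602 IP6 peaks, and 2 of the 1442 regions in that list, had a higher fold. The IP5 over mock 5 value was above 0.902% of the regions and the IP5 over mock 6 value above 83.3%.

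The highest of these folds was 4.63 times the lowest, and no other of the 1442 regions had a larger ratio (0 of them, with a median of 1.51). The ratio was 1.34 at SNB, 1.25 at OsSPL14 and 1.86 at YAB2. The highest fold of the same IP5 library was 2.33 times as high over mock 6 as over mock 5. That ratio was exceeded in 16 of the 1442 regions (median 1.11). Library and mock differ together between IP5 over mock 5 and IP6 over mock 6, and IP5 over mock 6 stands between them. The highest fold rose from 2.04 to 4.76 when the mock alone changed. It rose from 4.76 to 9.46 when the IP library alone changed. Each step rests on single library pairs without replicate error, and its cause was not tested. The peaks were also displaced against each other. The IP6 peak lay wholly upstream, from 691 to 70 bp before the start, whereas the IP5 peaks crossed the start, from 548 bp before to 149 bp after it over mock 6 and from 406 bp before to 339 bp after it over mock 5. A further IP5 over mock 6 peak inside the region (292 to 593 bp after the start, fold 2.63) overlapped the IP5 over mock 5 peak alone. Outside the region IP6 had a peak 111 bp beyond the short gene (2.85), and IP5 over mock 6 had one 1662 bp beyond it (3.0).

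**Figure D2:**
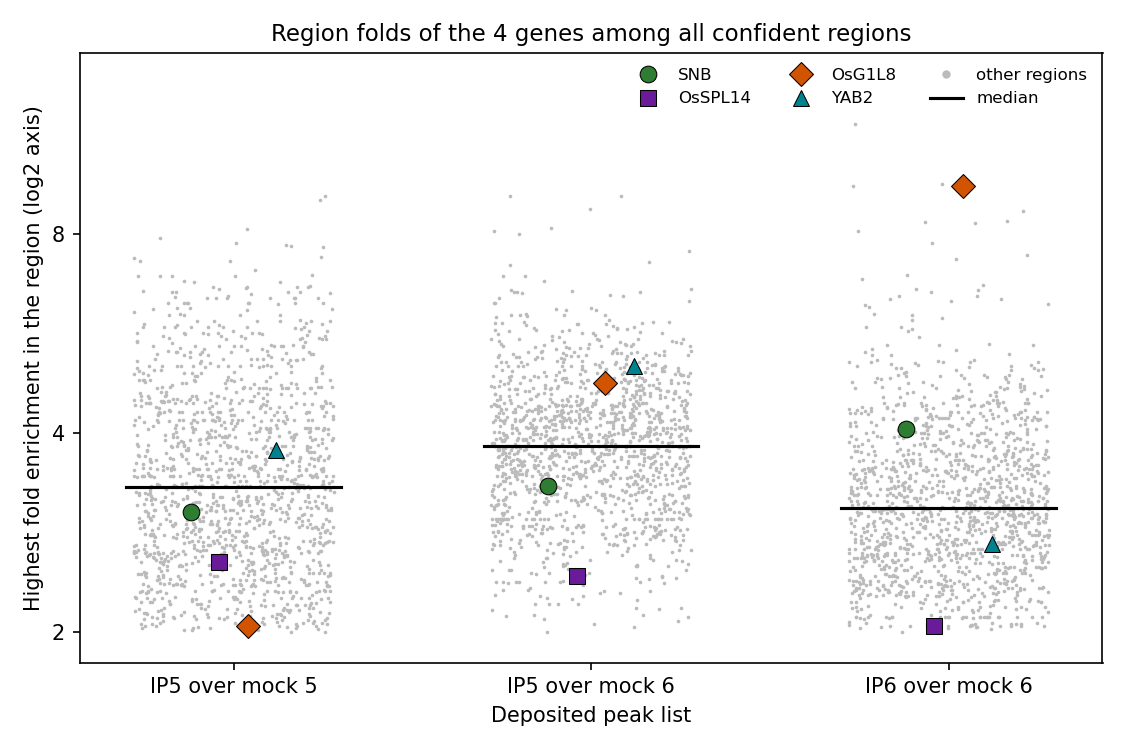
Highest fold enrichment in each of the 1442 confident regions (grey points, log2 axis) in the 3 deposited lists, with the median as a line and the 4 genes as large symbols. OsG1L8 moves from near the lowest value in IP5 over mock 5 (2.04) to near the highest for IP6 over mock 6 (9.46), and OsSPL14 stays below the median in each list.

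Set against the medians of the confident regions, which were 3.31, 3.82 and 3.08 in the order of the lists above, the 4 genes followed different orders. OsSPL14 was below the median in each list. SNB was above it in IP6 alone, YAB2 in both IP5 lists and OsG1L8 in both lists made with mock 6. In IP5 over mock 5 the order was YAB2, SNB, OsSPL14 and OsG1L8. In IP6 over mock 6 it was OsG1L8, SNB, YAB2 and OsSPL14. No replicate error is attached to these values, so whether neighbours in either order differ was not tested.

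YAB2 had its region inside the gene. It also had the largest number of peaks of the 4 genes, in the longest window (17892 bp with the 4 kb flanks). The region (chromosome 3, 25197367 to 25197783, 417 bp) lies 310 to 726 bp after the start of a gene of 9892 bp, longer than 98.4% of those in the table. The files hold no exon structure, so whether it falls in an exon or an intron was not examined. The fold was 3.77 in IP5 over mock 5 (q = 9.17e-12), 5.05 in IP5 over mock 6 (q = 3.05e-16) and 2.72 for IP6 over mock 6 (q = 1.17e-04). The IP5 over mock 6 value was above 89.2% of the regions, and the IP6 value above 30.4%.

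The strongest peaks of the gene body lay in different places in IP5 and IP6. IP6 had 3 more peaks, at 926 to 1626 bp (fold 3.87), 2093 to 2387 bp (4.10) and 5156 to 5382 bp (2.51) after the start, none of which overlapped an IP5 peak. The highest of them exceeded the IP6 fold within the region. IP5 had a peak near the far end of the gene over either mock, from 7911 to 8439 bp over mock 5 (4.80) and from 8142 to 8403 bp over mock 6 (3.13). Over mock 5 this distal peak was higher than that of the region, and over mock 6 it was lower. A last IP5 over mock 6 peak (2.89) lay 1018 bp beyond the gene end. As many as 4 IP6 peaks were found in 15.6% of the 2589 genes, and in 15.3% of the 190 genes with a window of like length (80% to 125% of that of YAB2). In the IP5 lists, at least as many peaks as at YAB2 were found in 66.2% (mock 5) and 66.8% (mock 6) of the 2589 genes.

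Over the 4 genes the lists held 28 peaks, 6 in IP5 over mock 5, 12 in IP5 over mock 6 and 10 for IP6 over mock 6. The whole lists hold 24169, 58213 and 10602 peaks in that order. Per gene, the medians over the 2589 genes were 2, 3 and 2 peaks in the same window, so the counts at the 4 genes are not unusual. Of the 28 peaks 13 were in the confident regions and 15 outside them. All 6 IP6 peaks outside the regions overlapped no IP5 peak, and over the whole list 60.9% of IP6 peaks overlap none. For IP5 over mock 6 it was 6 of 7, against 66.9% of the list, and for IP5 over mock 5 it was 1 of 2, against 29%. The peaks outside cannot include any site shared by all 3 lists unless it was left out of the table, so a larger share of unshared peaks follows from how they were picked. Their folds ranged from 2.51 to 4.80, within the range of the regions themselves. At the edge of the 4 kb window, the peak farthest out within it was that of OsSPL14 at 3492 bp (2.73), and the nearest beyond it was also at OsSPL14, at 4294 bp (2.85, both in IP5 over mock 6).

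Related genes were looked up by symbol in the same table. Of 8 YABBY names 5 were found, which belong to 3 gene entries, since 2 entries carry a pair of names each. The chosen gene YAB2 is among these 3 entries. For comparison, the genes of the whole table equal 8.8% of the protein-coding genes in a RefSeq annotation of another rice assembly. Paired names raise the count of names over that of genes, and neither count was tested. All 3 entries had their region inside the gene and just behind the start. A region lies inside the gene in 16.4% of all pairs, which include genes that the region does not touch. The entry named OsYAB5 and OsYAB6 (Os12g0621100, 9659 bp long) had its region 281 to 659 bp after the start (chromosome 12, 26477919 to 26478297), close to the 310 to 726 bp of YAB2. Its folds were 3.88 in IP5 over mock 5, 4.85 in IP5 over mock 6 and 6.27 for IP6 over mock 6. The IP5 folds were thus close to those of YAB2 (3.77 and 5.05), and the IP6 fold was higher (6.27 against 2.72).

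The layout of further peaks in that gene was like that of YAB2 in part. IP6 had 3 more peaks in the front part of the gene, 878 to 1033 bp (3.19), 1226 to 1495 bp (3.53) and 2720 to 2851 bp (3.08) after the start, and IP5 over mock 6 had one at 7419 to 7637 bp (4.27). At YAB2 2 of the 3 further IP6 peaks lay in the front part, and the other, at 5156 to 5382 bp, was in the middle of the gene. IP5 over mock 5 had no peak but that of the region at Os12g0621100, whereas at YAB2 it held the strongest distal peak (4.80). IP5 over mock 6 also had a peak at 12874 to 13197 bp (2.22), beyond the end of Os12g0621100. The partial likeness was noticed after the values were seen and was not tested. How the authors' mapping divides reads between similar YABBY genes was not examined. In the shorter entry named OsYAB4, OsYAB7 and TOB2 (Os02g0643200, 3046 bp), the region spanned 1 to 1288 bp after the start. There the IP6 peak (9 to 216 bp, fold 3.10) and the IP5 over mock 5 peak (741 to 1285 bp, 4.25) did not overlap, and an IP5 over mock 6 peak (1 to 1288 bp, 4.22) joined them.

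**Figure D3:**
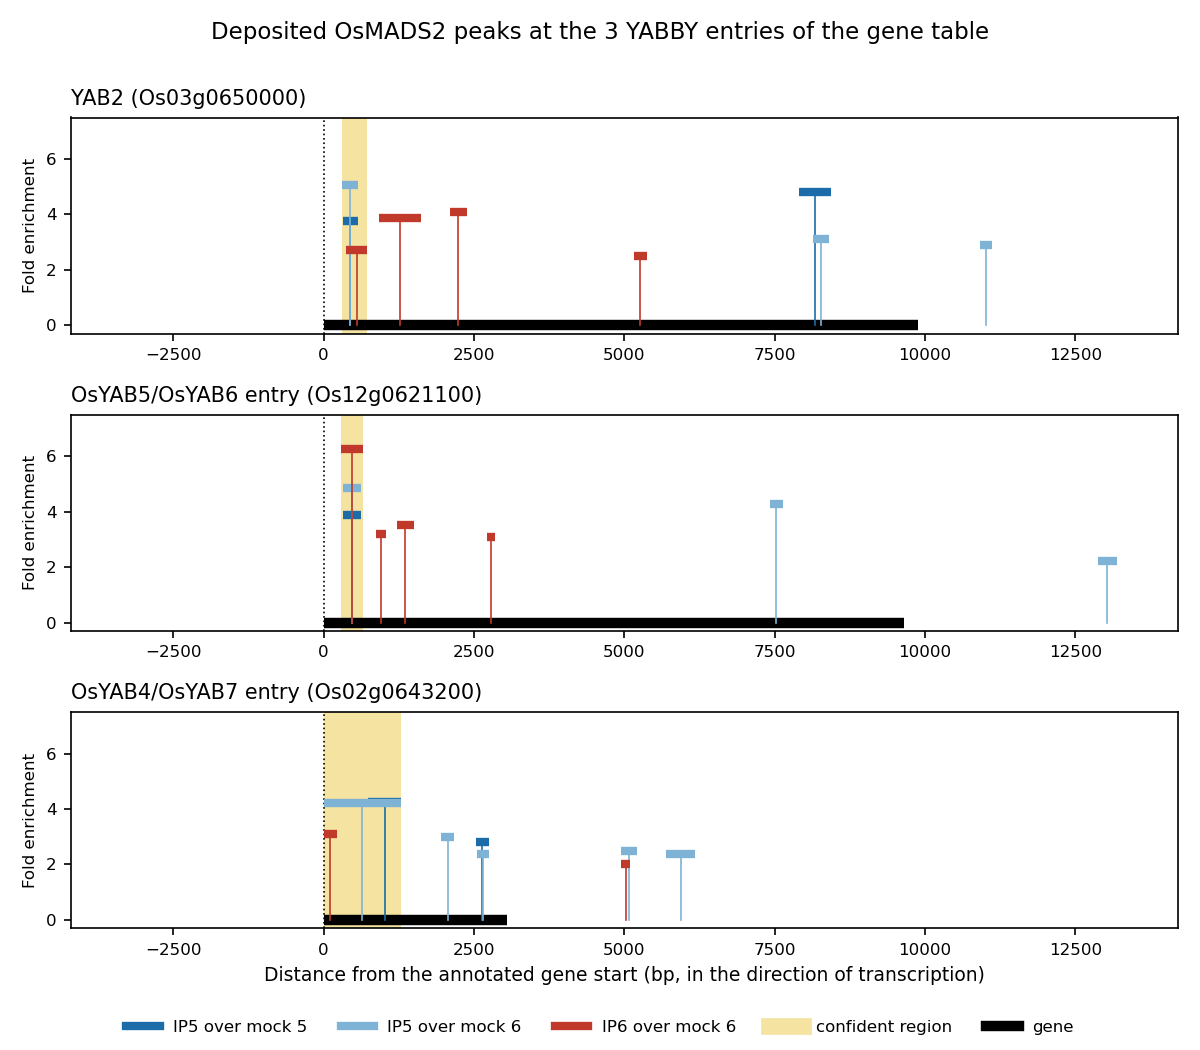
Deposited peaks at the 3 YABBY entries of the gene table by distance from the gene start (bp) and fold enrichment, drawn as for the 4 genes. In YAB2 and Os12g0621100 the confident regions cover 310 to 726 bp and 281 to 659 bp after the start, with further IP6 peaks behind them. The distal IP5 peak is present over either mock in YAB2 and over mock 6 alone in Os12g0621100.

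Among 19 SPL names 5 were found, and OsSPL14 was 1 of 2 whose region touched the gene. The other was OsSPL13 (Os07g0505200), which had 3 regions: upstream, across the start and in the gene body. Each of these 3 regions is assigned to 2 genes. The OsSPL13 region across the start ran from 454 bp before to 776 bp after it. Its folds were 3.45, 2.46 and 3.81 in the order of the lists, against 2.55, 2.43 and 2.04 at OsSPL14. These OsSPL13 folds do not describe 1 shared site. The IP5 over mock 5 peak (515 to 776 bp after the start) did not overlap the IP6 peak of fold 3.81, which ended 165 bp after the start. The IP6 peak that did overlap it, at 588 to 719 bp, had a fold of 2.19. OsSPL2, OsSPL11 and OsSPL12 had a region only downstream, 3028 to 3583 bp beyond the gene, and each of these regions is assigned to other genes too. SNB was the only one of 6 AP2-family spikelet names found, and OsG1L8 the only one of 10 ALOG names. As a background, the 2589 genes of the table equal 8.8% of the 29427 protein-coding genes of a RefSeq annotation of another rice assembly. The lists are short, hold the chosen genes themselves and depend on the symbols in the table, so these counts were not tested.

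The genes most like each of the 4 were sought by the distance between log2 folds over the 3 lists, which is a measure over 3 points that share libraries. For SNB, OsSPL14 and OsG1L8 only regions across a gene start were considered. The closest to SNB was Os10g0510700 (3.16, 3.18 and 3.93, distance 0.10), followed by Os07g0123100 (3.12, 3.63 and 4.21, distance 0.14). The closest to OsSPL14 were OsRDR4 (Os01g0198000), an RNA-dependent RNA polymerase gene by its symbol, at a distance of 0.26, and Os01g0819700 at 0.28. OsG1L8 had no near match: its closest were Os12g0242500 (2.16, 5.30 and 6.45, distance 0.58) and Os12g0638100 (2.42, 4.09 and 6.54, distance 0.63). YAB2 was closest to Os06g0218150 and Os06g0218200, which share 1 region (3.91, 4.85 and 2.62, distance 0.09).

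The authors' enriched gene ontology (GO) terms differ in part between the 4 genes. SNB and OsSPL14 share regulation of transcription, and OsSPL14 and OsG1L8 share DNA binding. Only enriched terms are listed, so other terms of these genes do not appear. In the authors' deposited table of 77 terms SNB is listed under 4, among them flower development (15 of 88 genes, false discovery rate 0.015). In the authors' deposited table OsSPL14 is listed under 7, among them inflorescence development (49 of 372, 0.00512), response to ammonium ion (12 of 64, 0.0144) and zinc ion binding (71 of 577, 0.00464). The SBP domain of OsSPL14 binds zinc. In the authors' deposited table OsG1L8 stands under 3 terms, nucleus, DNA binding and DNA-dependent regulation of transcription, and under no term of flower or inflorescence development. YAB2 stands under nucleus alone in the authors' deposited table (256 of 2529 genes, 0.0195), the 1 term that all 4 share. Neither headers nor labels name the tool and background behind these rates.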

How the data were processed

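Per the submitters' processing notes, the tools were MACS2, Bowtie2, fastp, deepTools and SAMtools, and no version is stated there. The authors deposited read counts per library, and for each of 3 IP over mock lists the peak positions, a fold enrichment (ratio) and −log10 values of p and q per peak, called per library pair and not pooled. Per the file headers, the authors collected peaks that overlap between lists, merged them and linked each region to genes in its proximity. The authors deposited this gene table in 2 copies with the same rows. The authors' −log10 false discovery rates of GO terms were converted to rates.

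Peaks were assigned to a region or to a gene with its 4 kb flanks at an overlap of 1 bp or more, and the highest fold per list was kept. Percentages of regions below a value refer to the highest fold per region. The start of a gene is its annotated end on the minus strand. Symbols were matched without regard to case, and 2 matches were left out: an auxin carrier entry also named LAX1, and a synonym of YAB2 that resembles OSH1. Overlap and rank functions were tested on simulated data. No test was run, since the members were chosen from these calls and each fold comes from 1 library pair. Members, gene lists and alternatives were chosen with earlier results of these data known. Named genes are the 4 members, the list genes found in the table, genes sharing a member's region, and for each member the 2 genes with the most similar folds, sought only among regions across a gene start for SNB, OsSPL14 and OsG1L8. RefSeq gene numbers come from ASM3414082v1. No genome sequence was used. Versions were Python 3.11.15, matplotlib 3.10.9, numpy 2.4.6 and pandas 2.3.3.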

Additional observations from a re-analysis of the deposited data

How the results depend on the processing

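All 4 genes had a peak of each list in their region, and this count was 3 at a q of at most 0.01 or 0.001 (OsSPL14 lost), 4 with a fold of at least 2 or with at least 50% of the peak in the region, and 1 with a fold of at least 3 (SNB). Without replicate 5 or replicate 6 the count was 4 and 4, which the choice of genes called in all 3 lists fixes and which says nothing about stability. The region crossed the gene start at 3 genes, also by midpoint within 250 bp and with 1 kb upstream allowed. When a peak of every list had to cross the start base, a setting chosen after seeing the data, the count was 1 (SNB). With a fold of at least 3, peaks at the 4 genes fell from 6 to 3 in IP5 over mock 5 and from 10 to 4 in IP6 over mock 6. Of 72 counts per gene and list under other windows, q and fold limits, 62 were within 1.5 times and 10 were not. With mock 6 as control the IP5 fold was 3.32 at SNB, 2.43 at OsSPL14, 4.76 at OsG1L8 and 5.05 at YAB2. No paired analysis was possible because the results come from peaks called on library pairs and no test was made. The cause of these changes was not tested, beyond fewer peaks passing a stricter limit.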

Other observations

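Of 22 names of panicle architecture genes, 1 was found in the gene table, which holds a number of genes equal to 8.8% of the RefSeq protein-coding genes. The count was not tested. ASP1 (Os08g0162100), a TOPLESS-like corepressor gene that acts in panicle branching and spikelet development, had a region from 622 bp before to 840 bp after its start (chromosome 8, 3666470 to 3667932). Its folds were 2.75 and 4.63 for IP5 (against mock 5 and then mock 6) and 3.97 for IP6. The IP5 fold over mock 5 was above 30.0% of the confident regions, and the folds over mock 6 were above 79.96% (IP5) and 81.4% (IP6) of them. The IP5 over mock 5 peak of fold 2.75, at 152 to 670 bp after the start, did not overlap the IP6 peak, which lay 622 to 31 bp before it. The IP5 over mock 5 peak that met the IP6 peak had a fold of 2.55.

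The OsSPL13 region in the gene body, 871 to 2913 bp after the start, had folds of 5.56, 4.77 and 3.10 in the order of the lists, the highest IP5 folds among the SPL genes found. The IP6 peak there was 1996 bp wide, and the IP5 peaks of 286 and 243 bp lay at its far end.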
